A study of Bubalus bubalis with 6 samples.

Results

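CPZ and 8 related carboxypeptidase genes were followed in buffalo muscle stem cells (MuSCs) before and after a switch to differentiation medium. The genes were chosen by name. CPZ, CPE, CPD, CPM, CPN1, CPXM1, CPXM2, AEBP1 and CPQ each had 1 row among the 24616 genes of the deposited table, so all 9 were found. The list starts from CPZ, which was selected on its rise between these same samples. Values of DM against GM samples for the 9 genes are therefore a description, and no p-value is given for them.

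Polyadenylated RNA was sequenced from 6 samples of Bubalus bubalis cells, 3 taken while MuSCs proliferated in growth medium (GM) and 3 after MuSCs were moved to differentiation medium (DM). The cells of both groups were primary cultures digested with collagenase and trypsin from fetal longissimus muscle. GM was high-glucose DMEM with fetal bovine serum and antibiotics, and DM was DMEM with a low level of horse serum, given when the cells were close to confluent. No genetic change or drug is described. The labels do not give the strain, the number of animals, the time in DM or whether each sample was a culture of its own, so the spread between samples may be technical. The paper puts the time in DM at a few days, with different days named in its methods and results. No cell sort is described. Each sample held between 35615864 and 40305237 gene counts. Replicates varied beyond counting noise. The chi-square of a pair over its degrees of freedom was 6.22 to 11.7, but 40.5 and 41.4 where DM replicate 3 was one of the pair. Values without that sample are given for some of the genes.

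Metallocarboxypeptidases hold a zinc ion and cut single residues from the C-terminus of peptides and proteins. CPE and CPD trim basic residues that proprotein convertases leave on hormones, growth factors and receptors inside the secretory pathway, and CPM does so at the cell surface, where it is held by a lipid anchor. CPN1 is the catalytic subunit of the plasma carboxypeptidase that inactivates kinins and anaphylatoxins and is known from liver. CPZ is secreted into the extracellular matrix and carries a cysteine-rich domain like that of the Wnt receptors of the frizzled family. CPXM1, CPXM2 and AEBP1 belong to the same branch of the family but lack residues needed for catalysis, and each carries a discoidin domain. The secreted form of AEBP1 binds collagen. CPQ is a secreted and lysosomal peptidase of a different metallopeptidase family that shares only the name.

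Genes are listed by cattle Ensembl identifiers. The genome build of their positions is not given in the sources used here. CPZ is ENSBTAG00000014803 (chromosome 6, 106626199 to 106650047, plus strand). CPE is ENSBTAG00000016514 (chromosome 17, 546398 to 697915) and CPD is ENSBTAG00000012371 (chromosome 19, 22025796 to 22086708). CPM is ENSBTAG00000013496 (chromosome 5, 45081462 to 45158699), and CPN1 is ENSBTAG00000023941 (chromosome 26, 20829327 to 20862859). CPXM1 is ENSBTAG00000011458 (chromosome 13, 52844182 to 52850549) and CPXM2 is ENSBTAG00000018941 (chromosome 26, 43829293 to 43966907). AEBP1 is ENSBTAG00000012237 (chromosome 4, 77881913 to 77891706) and CPQ is ENSBTAG00000011908 (chromosome 14, 69287302 to 69893052). All 9 are typed as protein-coding.

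CPZ had the largest difference of the 9 genes. It held 165, 151 and 196 counts in GM replicates 1, 2 and 3, and 6267, 5780 and 8014 counts in DM replicates 1, 2 and 3. Every DM sample was far above every GM sample, and DM replicate 3 was the highest. Counts scaled to a TMM-normalized library of 1000000 are called normalised counts here. On this scale its level went from 4.26 ± 0.807 in GM samples to 187 ± 29.3 in DM samples (mean ± SD, n = 3 each). The log2 fold change of DM over GM was 5.46 (standard error 0.16), a 43.9-fold difference. Leaving out single samples moved it only between 5.35 and 5.62. By mean RPKM, which scales counts by gene length and by the summed counts of the sample, CPZ stood at place 10762 of the 24616 listed genes in GM samples and at place 939 in DM samples. Its log2 fold change was at place 136 from the top among the 15576 genes tested. In bulk RNA, more cells of a type and more RNA per cell cannot be told apart. The interval of CPZ lies within that of another listed gene on the minus strand, ENSBTAG00000005711, which held 92, 104 and 71 counts in GM samples and 11, 20 and 4 counts in DM samples, a difference in the other direction. Whether the counting used strand is not given in the sources used here.

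**Figure D1:**
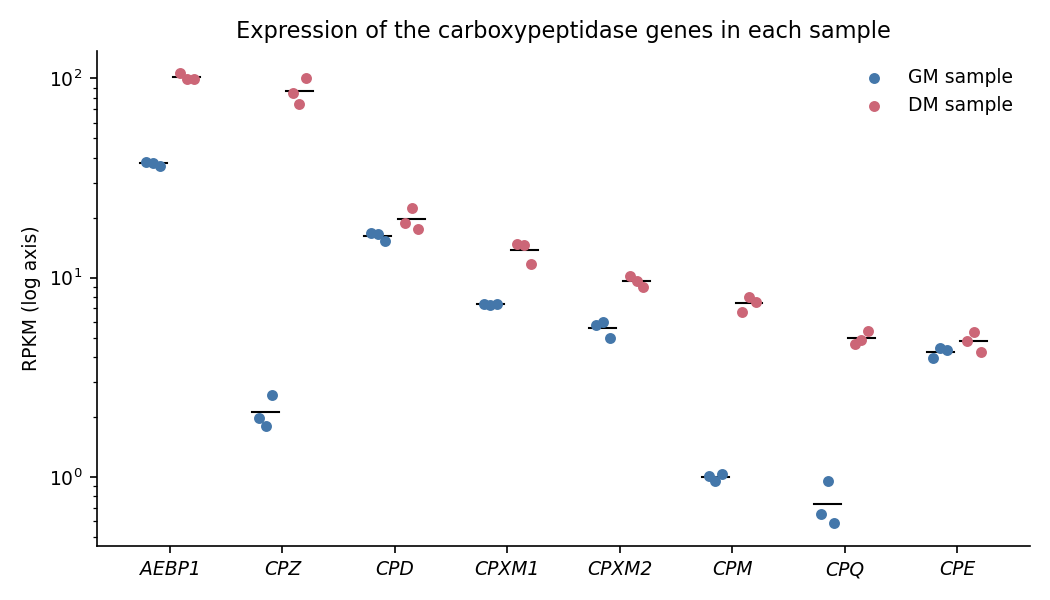
RPKM of 8 of the 9 genes in each sample, on a log axis, with GM samples in blue, DM samples in red and the mean of each group as a black line. CPN1 is left out, since 1 GM sample had no count. CPZ moved from 1.80 to 2.57 RPKM in GM samples to 74.5 to 101 RPKM in DM samples, next to AEBP1, while CPD and CPE moved little.

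AEBP1, the collagen-binding member, was the most abundant of the 9 genes per length in both groups. Its counts were 5724, 5704 and 4983 in GM samples and 14145, 13846 and 14148 in DM samples, with no overlap. Its level was 136 ± 3.57 normalised counts in GM and 393 ± 22.3 in DM samples (SD, n = 3 each), and DM exceeded GM by 1.54 on the log2 scale (standard error 0.064). The catalytically inactive relatives CPXM1 and CPXM2 were higher in DM samples by close to the fold change of 2 that a call required. CPXM1 held 701, 698 and 643 counts in GM samples and 1254, 1296 and 1056 counts in DM samples. The GM samples lay close together, and DM replicate 3 was the lowest of the DM samples. The log2 fold change of CPXM1 was 0.997 (standard error 0.10), and 1.11 without DM replicate 3. CPXM2 held 609, 636 and 482 counts in GM samples and 952, 945 and 900 counts in DM samples, again with every DM sample above every GM sample. Its log2 fold change was 0.87 (standard error 0.098).

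CPM, the surface-bound enzyme, held 171, 162 and 160 counts in GM samples and 1013, 1268 and 1228 counts in DM samples. The groups were well apart, and the 3 GM samples were nearly equal. Its level went from 4.08 ± 0.167 to 32.6 ± 2.38 normalised counts (SD, n = 3 each), a log2 fold change of 3.00 (standard error 0.099). CPQ, the member from outside the family, held 51, 75 and 42 counts in GM samples and 325, 354 and 402 counts in DM samples. Its level went from 1.38 ± 0.371 to 10.1 ± 0.703 normalised counts, a log2 fold change of 2.86 (standard error 0.20). Leaving out each sample in turn gave 2.73 to 3.10 for CPQ and 2.97 to 3.06 for CPM.

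The hormone- and receptor-processing enzymes CPD and CPE differed least. CPD held 2238, 2207 and 1869 counts in GM samples and 2234, 2782 and 2218 counts in DM samples, so the raw counts of the groups overlap. After scaling, its level was 52.1 ± 2.47 normalised counts in GM and 67.4 ± 8.11 in DM samples. The log2 fold change of CPD was 0.37 (standard error 0.090), and 0.46 without DM replicate 3. CPE held 471, 531 and 473 counts in GM samples and 510, 592 and 479 counts in DM samples. Its level was 12.2 ± 0.743 normalised counts in GM and 14.7 ± 1.65 in DM samples. The log2 fold change of CPE was 0.27 (standard error 0.11), and 0.37 without DM replicate 3. In normalised counts the lowest DM sample of CPE, replicate 3 at 12.9, was just above the highest GM sample at 12.8. In the deposited RPKM values the groups overlap, with the highest GM sample at 4.43 and DM replicate 3 at 4.22. CPN1, the plasma enzyme, had 1, 2 and 0 counts in GM samples and 1, 3 and 1 counts in DM samples. It was at or under the floor of 3 counts per sample throughout, so it was not tested and no fold change is given. At this depth only a rise well above the floor could have been seen, and none was. A smaller difference could not have been detected.

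Of the 9 genes, 8 had the minimum of 10 counts in total, and all 8 had a positive fold change, with a median log2 value of 1.27 against 0.03 over all tested genes. A gene was called where edgeR's quasi-likelihood test gave an adjusted p under 0.05 and the log2 fold change exceeded 1 in size. By that rule 4 of the 8 were called higher in DM samples (CPZ, CPM, CPQ and AEBP1), beside 15.0% of all tested genes called higher, 10.3% called lower and 25.3% called in either direction. None was called lower, by edgeR or by DESeq2, and none was lower at an unadjusted p under 0.05. The call count was 5 with DESeq2, with RLE size factors, with filterByExpr and without DM replicate 3, where CPXM1 passed the minimum fold change. GM and DM samples did not overlap in normalised counts for 8 of the 9 genes, beside 68.8% of all tested genes. In deposited RPKM they did not overlap for 7 of the 9, beside 68.8% of all tested genes, and in raw counts for 6 of the 9, beside 65.5%. Since CPZ was selected on this contrast, nothing is read from these counts.

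**Figure D2:**
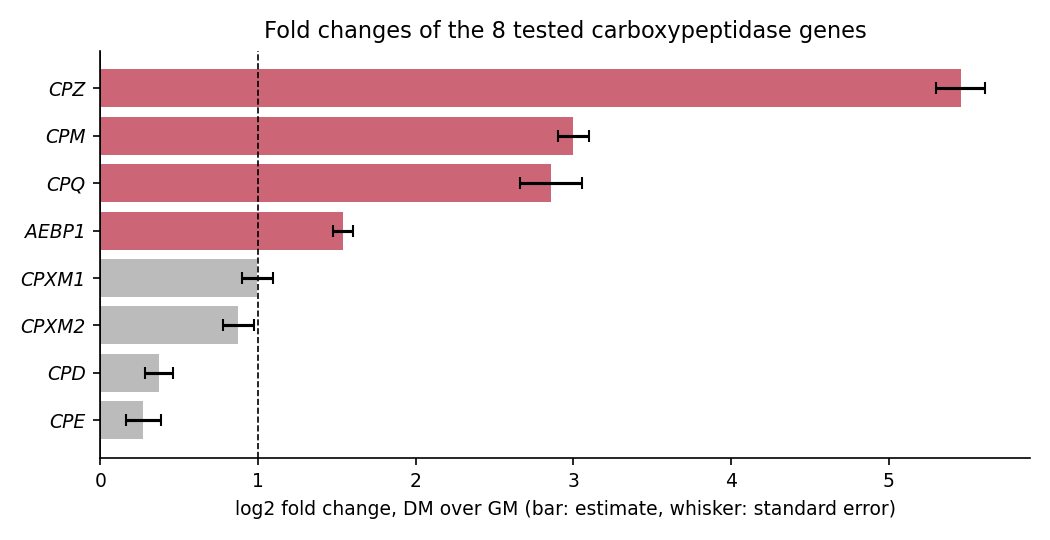
Log2 fold changes of DM over GM samples for the 8 tested genes, as bars with standard errors derived from edgeR's F statistic (3 samples per group). Red bars passed the call rule and grey bars did not, and the dashed line marks the minimum log2 fold change of 1. CPZ reaches 5.46, CPM and CPQ lie near 3, and CPXM1 sits on the line.

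Per length, the order of the genes differed between the groups. In GM samples the mean RPKM was highest for AEBP1 (37.5 ± 1.01), followed by CPD (16.2 ± 0.781), CPXM1 (7.35 ± 0.0526), CPXM2 (5.60 ± 0.527), CPE (4.24 ± 0.249) and CPZ (2.12 ± 0.401). CPM (0.995 ± 0.0423) and CPQ (0.729 ± 0.194) came next, with overlapping samples, and CPN1 was last. Other neighbours in this order did not overlap in GM samples. In DM samples AEBP1 (102 ± 4.01) was still first, and CPZ (86.6 ± 13.3) had moved from the sixth to the second place. The samples of these 2 genes overlap, since CPZ had 101 RPKM and AEBP1 99.1 in DM replicate 3. The ratio of CPZ to AEBP1 RPKM was 0.0518, 0.0475 and 0.0706 in GM samples and 0.796, 0.750 and 1.02 in DM samples. CPD (19.6 ± 2.58), CPXM1 (13.7 ± 1.79), CPXM2 (9.59 ± 0.602) and CPM (7.44 ± 0.672) followed without overlap. CPQ (4.96 ± 0.371) and CPE (4.79 ± 0.563) came next with overlapping samples, while their samples had not overlapped in GM.

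The summed RPKM of the 9 genes was 75.9, 75.7 and 72.6 in GM samples and 251, 239 and 255 in DM samples. AEBP1 made up 49.9 to 50.4% of the sum in GM and 38.8 to 42.3% in DM samples. The share of CPZ went from 2.84 ± 0.614% to 34.8 ± 4.27%, and that of CPD from 21.7 ± 0.529% to 7.93 ± 1.32%. Without CPZ the sum was still higher in every DM sample, at 154 to 166 RPKM against 70.0 to 74.0 RPKM in GM samples. CPM and CPQ, with large fold changes from a low start, took only 2.67 to 3.36% and 1.86 to 2.11% of the sum in DM samples.

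**Figure D3:**
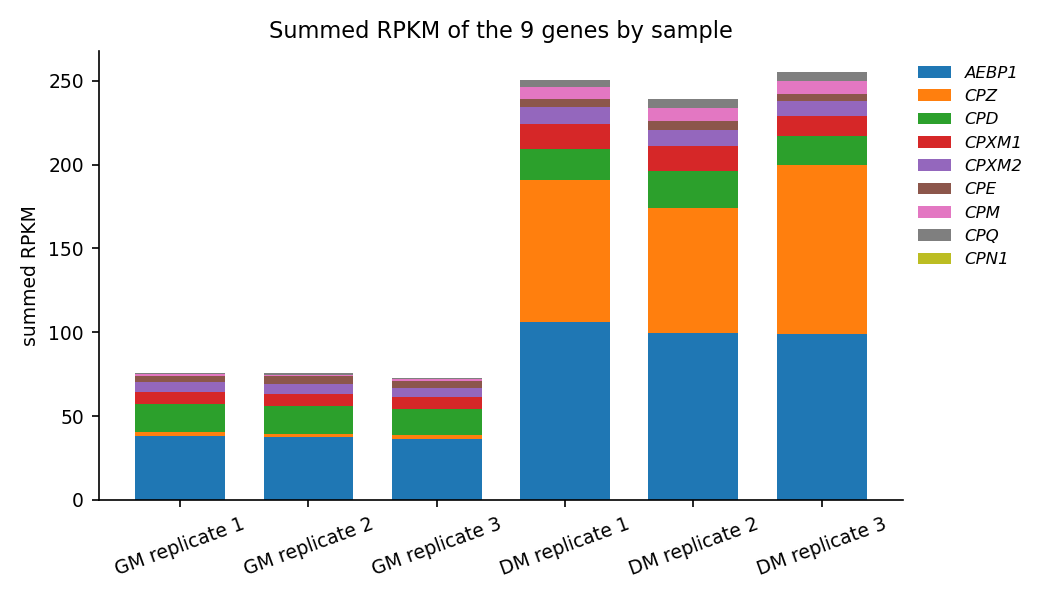
Summed RPKM of the 9 genes in each of the 6 samples, stacked by gene. GM bars reach 72.6 to 75.9 and DM bars 239 to 255, and most of the added height is AEBP1 and CPZ.

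The deposited transcript table gave 1 transcript for each of 7 of the genes, with the same counts as the gene. AEBP1 and CPXM1 had 2 transcripts each, whose counts share reads, so they add up to more than the gene's count. The longer AEBP1 transcript (3734 bases) held 96.9 to 97.3% of the gene's count in each of the 6 samples, and the shorter one (2761 bases) 81.3 to 84.1% of it in GM and 79.1 to 82.0% in DM samples. The shorter CPXM1 transcript (1446 bases) held 33.5 to 39.3% of it in GM and 37.4 to 40.2% in DM samples, so the groups overlap for both genes.

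Markers of cell types that such a culture could hold were measured beside these genes. All 6 myogenic markers (PAX7, MYF5, MYOD1, MYOG, MYF6 and DES) were present in both groups, so the labelled cell type had its markers. Their sum was 2435 to 2660 normalised counts in GM and 2055 to 2641 in DM samples, most of it DES (2274 and 2051 on average). The smaller members moved in both directions. MYF5 was called lower at a log2 fold change of -2.70, and MYOG and MYF6 were called higher at 1.66 and 3.97. MYOD1 and PAX7 were not called, at 0.90 and -0.92. The 9 fibroblast markers (PDGFRA, PDGFRB, COL1A1, COL3A1, DCN, LUM, THY1, TCF7L2 and FAP) all had positive fold changes, 7 of them called higher beside 15.0% of all tested genes, and their summed level went from between 24979 and 25206 to between 77624 and 97567 normalised counts, most of it COL1A1 and COL3A1. These markers moved in the same direction as CPZ, AEBP1, CPM and CPQ, and their part in those differences was not tested. The 6 macrophage markers summed to 6.49 to 8.61 normalised counts in GM and 7.59 to 15.0 in DM samples, with PTPRC at or under 3 counts in every sample. Adipocyte markers (6 genes) summed to 2.40 to 3.75 in GM and 6.89 to 8.35 in DM samples, with LEP at the floor. Endothelial markers (6 genes) summed to 5.74 to 5.83 and 7.02 to 9.35 normalised counts, and neuroendocrine markers (5 genes) to 9.93 to 10.5 and 8.20 to 9.89. Single markers in these sums went different ways. On the log2 scale CD14 was called higher at 2.75 and CD68 lower at -1.04. TEK was called higher at 1.51, and CDH5 (with overlapping groups) and VWF lower at -2.24 and -1.41. FABP4 and CIDEC were called higher and SYT1 lower.

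The genes most like CPZ were found by the root mean square difference between centred log2 values of normalised counts over the 6 samples, among 8053 named genes with a mean of at least 10 normalised counts. TNNI2, a troponin subunit of fast muscle fibres, was nearest, with a difference of 0.16 log2 units and a mean of 5.003 ± 0.998 normalised counts in GM and 184 ± 24.96 in DM samples. ASB5 followed at 0.21, then ISLR at 0.22, ASPN at 0.25 and MYL4 at 0.29. ISLR encodes a secreted leucine-rich repeat protein, ASPN the matrix proteoglycan asporin and MYL4 an embryonic myosin light chain. Their log2 fold changes ran from 5.20 to 5.76, beside 5.46 for CPZ. Since they were picked for profiles close to CPZ over the same samples, similar fold changes follow from the choice. The 5 genes thus include both contractile and matrix genes, and 6 samples in 2 groups do not separate one pattern from the other.

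Genes around the carboxypeptidases were compared as lists that hold none of the 9 genes. The lists were chosen with earlier results of these data known, so their calls are a description. Each list's calls stand beside 15.0% of all tested genes called higher, 10.3% called lower and 25.3% called in either direction. Of 15 other carboxypeptidases of the family (the digestive and mast cell types and the cytosolic tubulin-trimming types), 10 were listed and 7 tested. edgeR called 2 higher and 2 lower, all at low levels. None reached the level set for naming, so they were named after their values were seen. AGBL3, a cytosolic carboxypeptidase, held 12, 12 and 8 counts in GM samples and 44, 37 and 50 in DM samples, which is 2.20 on the log2 scale (adjusted p = 0.000275 from edgeR). CPA5 was called higher and CPA1 and CPA4 lower, with at most 48 counts in any sample. CPA4 and CPA5 overlap each other on the same strand. Each of these 3 calls was lost when certain single samples were left out. CPA5 lost its call without GM replicate 1 or 3 or DM replicate 1 or 3, CPA4 without GM replicate 1 or 3 or DM replicate 1 or 2, and CPA1 without GM replicate 2 or DM replicate 1 or 2. CPA1 also lost its call with DESeq2 and with the replicate block, and it was not tested with filterByExpr or without GM replicate 1, where it fell below the count filter. With 1 sample left out the list had 1 to 2 genes called higher and 0 to 2 called lower. The cytosolic members AGTPBP1 (6.29 and 8.03 normalised counts in GM and DM samples) and AGBL5 (8.70 and 7.85) were not called.

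Of 13 carboxypeptidases from other families (lysosomal serine and cysteine enzymes, angiotensin-converting enzymes, dipeptidases and tubulin carboxypeptidases) 10 were tested. edgeR called 2 higher and none lower, while 2 were lower at an unadjusted p under 0.05 and DESeq2 called none lower. SCPEP1, a serine carboxypeptidase, rose from 46.0 ± 1.09 to 102 ± 16.0 normalised counts (log2 fold change 1.14, standard error 0.10, adjusted p = 3.12e-06 from edgeR). ACE, named after its values were seen, was at least 3.87-fold higher, from 1 count or none in GM samples to 10, 6 and 15 counts in DM samples. VASH1, a tubulin carboxypeptidase, had a log2 fold change of -0.98 and was called lower without GM replicate 3 or DM replicate 3. The lysosomal enzymes CTSA and CTSZ had log2 fold changes of 0.35 and 0.78 and were not called.

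Proprotein convertases cut precursors after basic residues, which CPD and CPE then remove. Of 17 genes for convertases, their partners and secretory granule proteins, 14 were tested, and edgeR called 4 higher and 4 lower. Their median over the tested genes was -0.32 on the log2 scale. VGF, a granule protein and peptide precursor, fell from 119 ± 15.9 to 5.91 ± 2.12 normalised counts (log2 fold change -4.32, adjusted p = 3.56e-08 from edgeR). SCG5, the chaperone of PCSK2, rose from 1.71 ± 0.490 to 8.37 ± 1.55 normalised counts, a log2 fold change of 2.29, and SCG3 rose by 2.25 on the same scale. PCSK2 itself had no count in any sample. FURIN, a convertase of the trans-Golgi network, was called lower at a log2 fold change of -1.04, from 178 to 86.5 normalised counts, and was not called without DM replicate 2 (-0.97). PCSK5 and PCSK6 were called higher, at 1.48 and 1.98, and PCSK1 and SCG2 lower, at -2.11 and -2.55. DM replicate 3 had 2 counts of PCSK1 against 31 and 27 in the other DM samples, and 12 counts of SCG2 against 6 and 1. Without it the values were -1.55 for PCSK1 and -3.34 for SCG2, both still called.

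Proteins with a frizzled-type domain, the domain that CPZ carries, made up a list of 22, with 18 tested. edgeR called 12 higher and 2 lower, which is 77.8% of those tested beside 25.3% of all tested genes, and the median log2 fold change was 1.43. The list follows from a domain of CPZ, which was selected on this contrast, so nothing is read from that share. MUSK, a receptor kinase of the neuromuscular junction, rose from 66, 33 and 84 counts in GM to 507, 639 and 800 in DM samples. Its log2 fold change was 3.56 (adjusted p = 1.45e-06 from edgeR). SFRP4, a secreted Wnt antagonist, rose from 30.3 to 295 normalised counts, a log2 fold change of 3.28 with DM replicate 3 the lowest of the DM samples (7399 counts against 13324 and 10599). COL18A1, a basement membrane collagen, rose by 2.54 on the log2 scale, with DM replicate 3 the highest (6299 counts against 3347 and 4284). Among the Wnt receptors themselves FZD1, FZD2, FZD4, FZD7 and FZD9 were called higher, FZD5 and FZD10 lower, and FZD6 was not called. ROR1 and ROR2, at 1.02 and 1.06, lost their calls with library size alone and without DM replicate 1, and ROR1 also without GM replicate 2 or DM replicate 2. With 1 sample left out, 10 to 13 genes of this list were called higher.

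**Figure D4:**
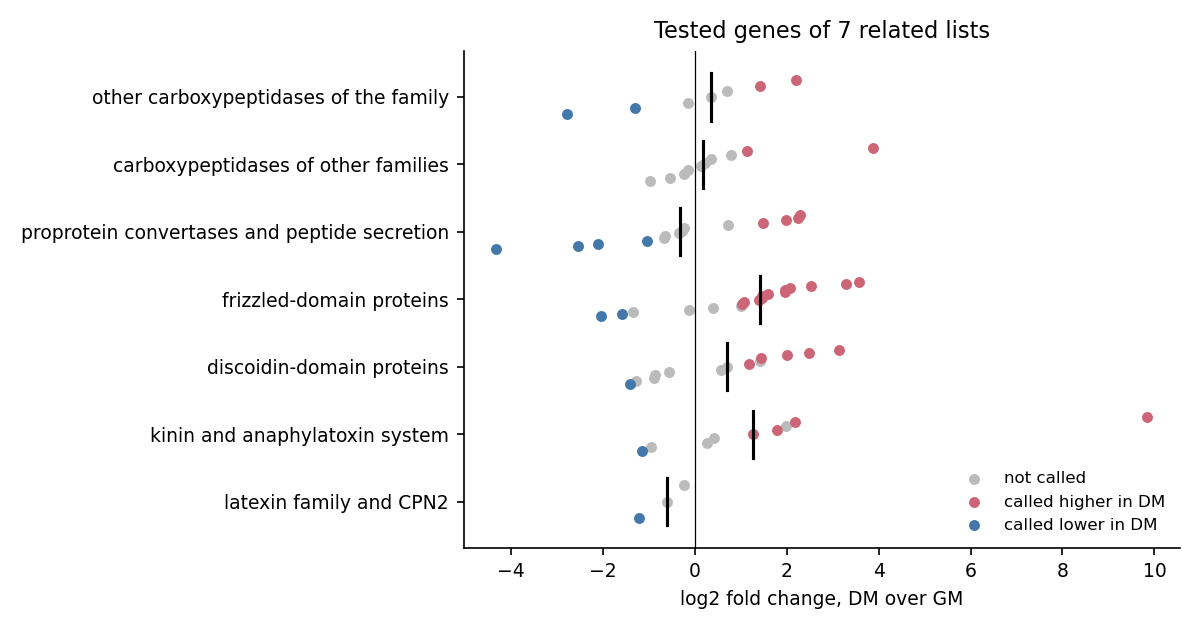
Log2 fold changes of DM over GM samples for the tested genes of 7 lists, 1 point per gene, with the list's median as a black bar. Genes at the count floor are drawn at their fitted values. With bounds in their place the median is 0.42 rather than 1.27 for the kinin and anaphylatoxin list. For the discoidin-domain list it is 0.57 rather than 0.70. Red points were called higher and blue points lower by edgeR. The frizzled-domain genes lie mostly to the right of 0, with a median of 1.43, while convertases and granule genes fall on both sides.

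Proteins with a discoidin domain, the domain of AEBP1, CPXM1 and CPXM2, made up a list of 16, with 13 tested. edgeR called 5 higher and 1 lower, and the median log2 fold change was 0.70, or 0.57 with genes at the count floor set to their bound. EDIL3, a secreted integrin ligand, rose from 11.2 ± 2.16 to 98.6 ± 13.8 normalised counts, or by 3.14 on the log2 scale (adjusted p = 2.86e-08 from edgeR). CNTNAP1, a contactin partner, rose by 2.48 on the log2 scale and F8, a coagulation factor, by 1.99. F8 overlaps other listed genes on the opposite strand. The collagen receptors DDR1 and DDR2 were not called, at -0.89 and 0.57. MFGE8 was called higher at 1.18, and not without DM replicate 3 (0.90), while DCBLD2 was called lower at -1.41.

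CPM and CPN1 are known to act on kinins and on complement anaphylatoxins. Of 14 genes of that system, 9 were tested, and edgeR called 4 higher and 1 lower. The median was 1.27 on the log2 scale, or 0.42 with genes at the floor set to their bound. C3, the precursor of an anaphylatoxin, held 19, 14 and 28 counts in GM samples and 19105, 19558 and 11130 counts in DM samples, and its log2 fold change was 9.61 to 10.2 with 1 sample left out. MME, the surface peptidase neprilysin, rose by 2.17 on the log2 scale and BDKRB2, a bradykinin receptor, by 1.27. C5AR2 was called higher at 1.79 from at most 42 counts, with overlapping groups, and lost its call with library size alone and without GM replicate 1 or 2 or DM replicate 1 or 3, while it reached 2.95 without GM replicate 3. The kininogen gene KNG1 and C5 had no count in any sample. THOP1, a cytosolic oligopeptidase, was called lower at -1.14.

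The latexin family holds carboxypeptidase inhibitors or relatives of them, and CPN2 is the regulatory partner of CPN1. RARRES1 fell from 4.12 ± 0.766 to 1.78 ± 0.612 normalised counts, a log2 fold change of -1.21 (adjusted p = 0.00216 from edgeR). LXN, the latexin gene, had 19.5 normalised counts in GM and 12.8 in DM samples and was not called, at a log2 fold change of -0.61. It overlaps GFM1 on the opposite strand. CPN2 held between 2 and 8 counts per sample and was not called. No gene of these 3 was called higher by edgeR or DESeq2, and none was higher at an unadjusted p under 0.05.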

How the data were processed

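MuSCs in GM (3 samples) and DM (3 samples) were grouped by the titles in the labels. Per the study's methods, reads were aligned with HISAT2 to a buffalo genome, while the submitters' processing notes name Bowtie 0.12.2 and the mouse builds mm8 and mm9, and the tables list cattle identifiers, so the build is uncertain. The deposited gene table holds raw read counts per gene and sample. It also holds RPKM values that the authors computed, which could be recomputed from counts, gene length and summed gene counts to within 5.46e-12. The authors' tables of differential features, with fold changes and p-values, were not used.

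The members and the gene lists were chosen with earlier results of these data known. Genes with at least 10 counts over the 6 samples were tested in edgeR 4.0.16 (R 4.3.3) with TMM normalization and the quasi-likelihood F-test, with Benjamini-Hochberg adjustment over all tested genes. A call required an adjusted p under 0.05 and a log2 fold change over 1 in size. Standard errors were derived as the size of the log2 fold change over the square root of edgeR's F statistic. Values per sample are normalised counts, scaled to a TMM-normalized library of 1000000. The 9 members were all named, with the 5 genes most like CPZ (prior count 2) and, per list, up to 3 called genes with the largest change and a mean of at least 1 normalised count. Other list genes named were chosen after their values were seen. The floor was 3 counts per sample, and it covers counting error only. The fit was tested on simulated data. Alternatives were DESeq2 1.42.0, other scalings and filters, no minimum fold change, a replicate block, summed transcript counts and leaving out each sample, and overlap on deposited RPKM and on raw counts and the list genes' values were added after seeing the data.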

Additional observations from a re-analysis of the deposited data

How the results depend on the processing

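A member's log2 fold change was counted as moved where it shifted by 1 SD between replicates or more. Leaving out 1 of 3 samples can hardly shift a group mean that far, so those values show little. Of 104 log2 fold changes of the 8 tested members under an alternative, 102 moved by less than 1 SD between replicates. The exceptions came with library size alone, which gave 2.90 for CPM and 1.44 for AEBP1 and moved the median of all tested genes from 0.03 to -0.07 and the share of calls that were higher from 59.2% to 52.8%. Of 40 calls in the lists, 32 were kept in every setting in which the gene was tested. Without a minimum fold change 9813 of 15576 tested genes were called, 4920 of them higher, in place of 3936 with 2330 higher. The counts under that rule became 7 members higher, and 5 higher and 1 lower among carboxypeptidases of other families. They also became 7 convertase and granule genes lower, 4 discoidin-domain genes lower, 2 kinin and anaphylatoxin genes lower and 2 genes of the latexin list lower. Among other carboxypeptidases of the family 1 gene was called lower, in place of 2, with DESeq2, with filterByExpr and with the replicate block. The gene lost with DESeq2 and the block was CPA1, which filterByExpr left out of testing. With 1 sample left out, 1 to 2 of them were called higher and 0 to 2 lower. Among carboxypeptidases of other families 1 was called lower with library size alone and 0 to 1 with 1 sample left out. With no filter on low counts 1 was called lower, a gene that the filter had left out of testing. In this list filterByExpr called 1 higher in place of 2, as it left ACE out of testing. Library size alone called 2 kinin and anaphylatoxin genes lower in place of 1. Samples with the same number did not deviate together (correlations of -0.00756, -0.0218 and -0.0105), nor did those with unlike numbers (-0.0121 to 0.0238). This cannot decide whether the numbers pair the samples, since paired cultures need not deviate together. The replicate block called 3837 of 15576 tested genes in either direction, 2274 of them higher, and it called 4 members higher. The cause of these changes was not tested. The minimum fold change, rather than the adjusted p, set many of the calls. Depth limits CPN1, which was too low to test, and the CPA genes, with at most 48 counts in a sample.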
